A study of Mus musculus with 12 samples.

Results

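The 5 genes of a regulatory loop were followed through regulatory T cells (Treg) of the mouse, namely Egr1, Egr2 and Egr3, which encode early growth response zinc finger transcription factors, and Nab1 and Nab2, which encode the corepressors that bind them. They were chosen by name, and each name matched 1 of the 36222 genes in the expression table, so the set holds 5 genes. RNA sequencing covered 12 libraries in 4 groups of 3. WT mice carried Foxp3-YFP-Cre alone, and cKO mice carried Foxp3-YFP-Cre with the floxed Ikzf1 allele, so that Ikzf1, which encodes Ikaros, was deleted in Foxp3-expressing cells. All 4 groups therefore carried the Cre, which is driven from Foxp3, and WT here does not mean free of it. YFP+ Treg were sorted from splenic CD4+ T cells of individual mice. Those sampled ex vivo were matched for age at 6 to 8 weeks, and the age of the mice behind the stimulated cells is not given. They were taken either without stimulation (ex vivo) or after 4 h on plate-bound antibodies to CD3 and CD28 at 1 ug/ml each, which engage the T cell receptor and its main costimulatory receptor. No group was cultured for 4 h without the antibodies. A change called a stimulation effect here can therefore not be told apart from an effect of the culture. Whether ex vivo and stimulated cells came from the same animals is not given.

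In T cells the EGR genes are switched on within minutes to hours of T cell receptor engagement, through the ERK kinases and serum response factor (SRF) and through the calcium-dependent NFAT proteins. EGR1 is a classical immediate early factor of many cell types. EGR2 and EGR3 are known in T cells for restraining proliferation and for a programme of anergy and tolerance. NAB1 and NAB2 bind a repression domain shared by EGR1, EGR2 and EGR3 and curb their activity, so that the balance of factor to corepressor belongs to the known biology of the pathway.

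Levels are given as scaled TPM. TPM is the authors' abundance per transcript length, each library summing to 1000000, and the scaling moved each library by 1 factor so that the bulk of genes with at least 5 TPM lined up. Because TPM is per length, levels of different genes can be compared as far as the lengths used are right. For Egr1 that length is in doubt. In the first WT ex vivo library 1 read was worth 0.0238 TPM for Egr1 and 0.0314 for Egr2. Yet Egr1 has fewer annotated exon bases, 3100 against 3398, and a longer length gives less TPM per read. The level of Egr1 beside other genes may thus be too low, while its changes between libraries are unaffected. Each library had between 8208659 and 20247649 reads on genes, with the cKO stimulated group the shallowest, and the predicted gene Gm10800 held from 17.7% to 55.9% of the TPM. Ikzf1 stood at 110.1 ± 5.55 scaled TPM in WT ex vivo and 37.9 ± 4.57 in cKO ex vivo, and at 68.9 ± 2.24 and 27.8 ± 3.91 after stimulation (SD, n = 3). It was thus lower in every cKO library than in any WT library of the same condition, as the labels say. The 7 Treg and T cell markers, Foxp3 and Il2ra among them, summed to between 1909 and 2213 scaled TPM ex vivo and between 1233 and 1728 after stimulation, whereas 7 myeloid markers together reached at most 28.3 and 6 erythroid markers at most 11.8. The 6 B cell markers summed to between 282 and 424 ex vivo and between 100.2 and 118 after stimulation. That sum was almost all Ighm, since Cd79a and Ms4a1 never passed 3.00 and 4.24 scaled TPM. The third WT ex vivo library was the only one of the 12 with a high level of Xist, at 179 TPM, so it came from a female mouse. In the WT stimulated libraries Xist stood between 0.698 and 1.05 TPM, so none of them came from that mouse.

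All 5 genes were detected in every library and stood above 5 TPM in all 4 groups, so that none passed the filter through 1 group alone. Read counts ran from 166 for Egr3 in a WT ex vivo library to 10996 for Egr1 in another. Counting error alone therefore amounted to between 0.954% and 7.76% of a value, and it is a lower limit, since the fragments carried no molecular identifiers. In bulk RNA a change in level per cell and a change in the share of expressing cells cannot be told apart.

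**Figure D1:**
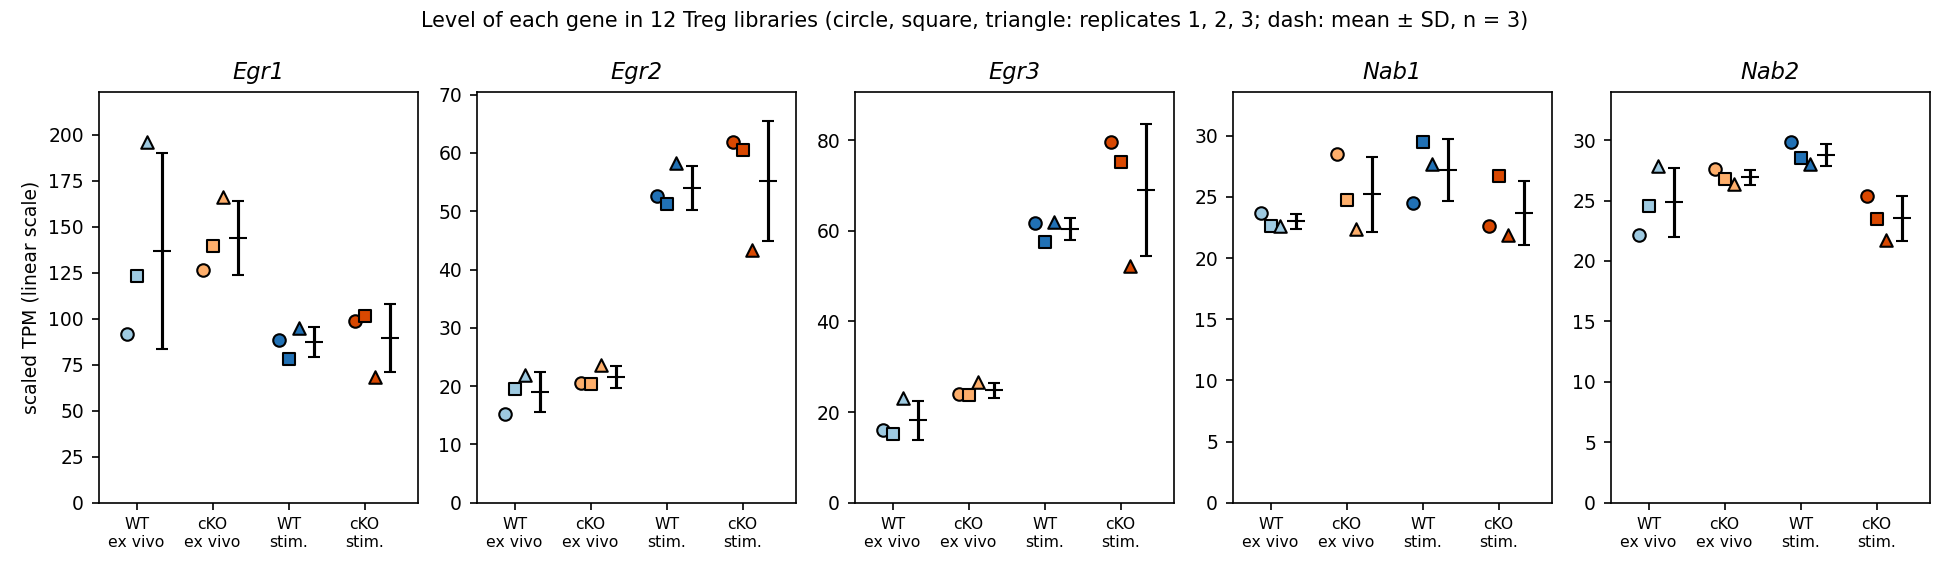
Level of Egr1, Egr2, Egr3, Nab1 and Nab2 in scaled TPM (linear axes from 0, one panel per gene) in the 12 libraries, with the mean and SD of each group of 3. Egr2 and Egr3 stood higher in all 6 stimulated libraries than in any ex vivo library, Egr1 was spread widely in WT ex vivo, and Nab1 and Nab2 stayed between 21.7 and 29.8 scaled TPM throughout.

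Egr2 (ENSMUSG00000037868) rose with stimulation in both genotypes. The gene lies on the plus strand of mm9 at chr10:66998223-67004936 and overlaps no other annotated gene. In WT it stood at 15.2, 19.6 and 22.0 scaled TPM in the ex vivo libraries and at 52.6, 51.2 and 58.3 in the stimulated ones. In cKO the ex vivo libraries stood at 20.6, 20.3 and 23.7 and the stimulated ones at 61.8, 60.5 and 43.3. Every stimulated library was above every ex vivo library, and the third cKO stimulated library, which was also the shallowest and held the most Gm10800, was the lowest of the stimulated ones. The fitted change was 1.48 ± 0.15 on the log2 scale in WT (SE), a fold of 2.79 with a 95% interval from 2.20 to 3.53 and an adjusted p of 5.12e-05 in limma. In cKO it was 1.31 ± 0.15, a fold of 2.47 (95% interval 1.95 to 3.13), with an adjusted p of 9.21e-05. The cKO call was lost with the filter at 1 TPM, at 0.76 (limma adjusted p 0.0664), and with no filter, at 0.76 (0.0678).

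Egr3 (ENSMUSG00000033730), the closest partner of Egr2 in T cells, rose by a similar amount. It lies on the plus strand of mm9 at chr14:70477252-70479964, with no annotated overlap. WT libraries stood at 16.0, 15.2 and 23.2 scaled TPM ex vivo and at 61.8, 57.5 and 61.9 after stimulation. cKO libraries stood at 24.1, 23.8 and 26.7 ex vivo and at 79.5, 75.1 and 52.3 after stimulation. The stimulated and ex vivo libraries again did not overlap in either genotype. The change was 1.70 ± 0.17 in WT, a fold of 3.26 (95% interval 2.50 to 4.24, adjusted p 4.14e-05), and 1.41 ± 0.17 in cKO, a fold of 2.67 (2.05 to 3.47, adjusted p 0.000111). In cKO it was not called with the filter at 1 TPM, at 0.86 (limma adjusted p 0.0613), or with no filter, at 0.87 (0.0633). Of the 13318 genes tested, 99.4% changed less upward than Egr3 and 98.7% less than Egr2 in WT. In cKO these shares were 96.4% and 95.4%.

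Egr1 (ENSMUSG00000038418) behaved otherwise and had its highest levels without stimulation. The gene is annotated on the plus strand of mm9 chromosome 18 from 35020861 to 35024638, and Gm17507 overlaps it on the minus strand, with the counting done by strand. WT ex vivo libraries stood at 91.6, 123 and 196 scaled TPM and cKO ex vivo libraries at 126, 139.7 and 166. After stimulation WT libraries stood at 88.6, 78.4 and 94.8 and cKO libraries at 98.6, 102 and 68.2. In cKO every stimulated library was below every ex vivo library, while in WT the first ex vivo library lay within the stimulated range. The highest value of all was that of the library from a female mouse. The fitted change was -0.58 ± 0.25 in WT, with a 95% interval from -1.12 to -0.038 and an adjusted p of 0.0964, so it was not called at the threshold of 0.05. In cKO it was -0.69 ± 0.25, a fold of 0.618 (95% interval 0.425 to 0.899), with an adjusted p of 0.0404, just past the threshold. Both values depended on the scaling, and under quantile normalization they were -0.082 in WT and -0.043 in cKO (limma adjusted p 0.808 and 0.889), while with the filter at 1 TPM they were -0.83 and -1.25 (0.198 and 0.0232). With TPM recomputed without Gm10800 and no other scaling, the setting called without Gm10800 from here on, they were -0.13 and -0.43 (0.620 and 0.116). Leaving out the library from a female mouse brought the WT change to -0.28 with an adjusted p of 0.334, while leaving out the first WT ex vivo library brought it to -0.83 with an adjusted p of 0.0231. Egr1 in cKO lost its call when any of 7 of the 12 libraries was left out, with the highest adjusted p, 0.182, without the third cKO stimulated library, where the change was -0.47. It also lost its call when the replicate number was added to the fit as a block. Among the B cell markers Ighm fell with stimulation too, by -1.63 ± 0.11 in WT and -1.98 ± 0.11 in cKO, and Cd79b by -0.68 ± 0.23 in WT (limma adjusted p 0.0406), and their part in the result was not tested.

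Nab1 (ENSMUSG00000002881) and Nab2 (ENSMUSG00000025402) changed little. Nab1 lies on the minus strand of mm9 at chr1:52514138-52557523. Nab2 lies on the minus strand at chr10:127097974-127105624, where Stat6, Gm16229 and Tmem194 overlap it on the plus strand. Over the 12 libraries the highest level was 1.35 times the lowest for Nab1 and 1.37 times for Nab2, against 2.87 times for Egr1, 4.05 times for Egr2 and 5.22 times for Egr3. Nab1 stood at 23.7, 22.6 and 22.7 scaled TPM in WT ex vivo and at 24.5, 29.4 and 27.7 in WT stimulated, which did not overlap. In cKO the ex vivo libraries stood at 28.5, 24.7 and 22.4 and the stimulated ones at 22.6, 26.7 and 21.8, which did. Nab2 stood at 22.2, 24.6 and 27.9 in WT ex vivo and at 29.8, 28.5 and 28.0 in WT stimulated, so that the groups were separate by a narrow margin. In cKO Nab2 stood at 27.6, 26.8 and 26.4 ex vivo and at 25.4, 23.5 and 21.7 after stimulation, separate in the other direction.

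Neither corepressor passed the test of stimulation in the fit reported here. The change of Nab1 was 0.23 ± 0.11 in WT (95% interval -0.0073 to 0.47, adjusted p 0.128) and -0.083 ± 0.11 in cKO (-0.32 to 0.15, adjusted p 0.546). The change of Nab2 was 0.21 ± 0.09 in WT (0.0099 to 0.41, adjusted p 0.102) and -0.19 ± 0.09 in cKO (-0.39 to 0.0085, adjusted p 0.108). The largest stimulation effect these intervals allow for either gene was a rise of 1.38-fold, well short of the lower limits of Egr2 and Egr3. The sign and the call of these small values depended on the scaling. Scaling over all genes from 1 TPM turned the WT values of Nab1 and Nab2 to -0.012 and -0.034, and TPM recomputed without Gm10800 raised them to 0.67 and 0.65, where both were called, and turned the cKO values to 0.18 and 0.067. Nab2 in cKO was instead called lower with the filter at 1 TPM, at -0.73 (limma adjusted p 0.0252), and with no filter, at -0.72 (0.0255). Leaving out the library from a female mouse, Nab2 was called higher in WT, at 0.30 (limma adjusted p 0.0278). The filter at 1 TPM and the setting without Gm10800 also moved the median of all genes, by -0.23 and 0.42 in WT.

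In all, 2 of the 5 genes were called for stimulation in WT, where 32.0% of the 13318 genes tested were called, and 3 of 5 in cKO, where 43.8% were. The 2 in WT were Egr2 and Egr3, both higher, and cKO added Egr1, lower. In each genotype 4 of 5 genes had stimulated libraries that did not overlap the ex vivo ones, which held for 47.5% of all genes in WT and 53.5% in cKO. With so many genes moving, the count of members is close to the background, and the size of the Egr2 and Egr3 change, not the count, sets them apart from most genes. The median change over the 5 genes was 0.23 in WT and -0.083 in cKO, against 0.0021 and -0.010 over all genes tested.

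**Figure D2:**
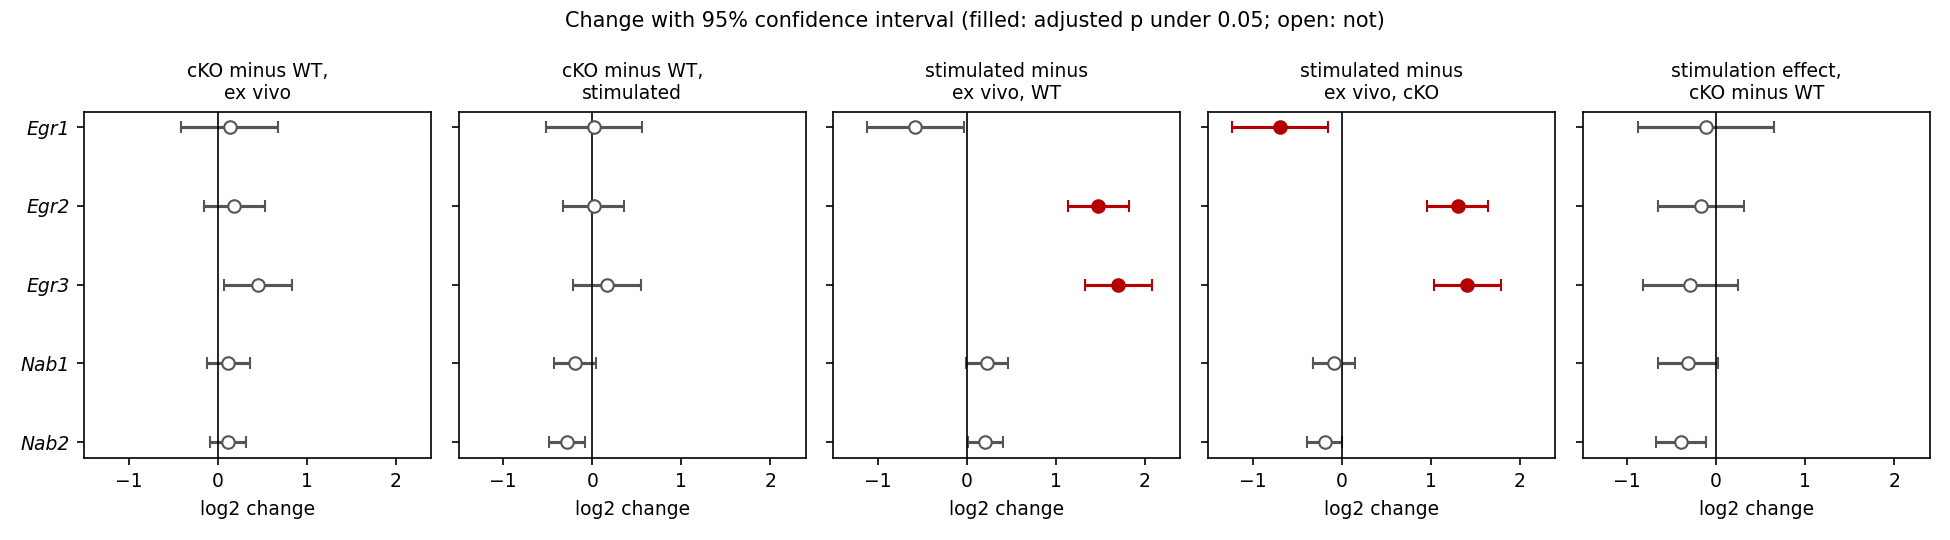
Fitted log2 change of each gene with its 95% confidence interval in the 5 comparisons, with filled points for an adjusted p under 0.05. Filled points appear in the stimulation panels for Egr2 and Egr3, from 1.31 to 1.70, and for Egr1 in cKO at -0.69, and in no genotype panel.

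Ratios within a library are free of the scaling factor and show the exchange between family members directly. Those with Egr1 depend on the length used for it, which is the same in every library. Egr1 made up 74.5%, 78.0% and 81.3% of the summed Egr1, Egr2 and Egr3 level in the WT ex vivo libraries and 73.9%, 76.0% and 76.7% in the cKO ex vivo ones. After stimulation the share was 43.7%, 41.9% and 44.1% in WT and 41.1%, 42.8% and 41.6% in cKO. No stimulated library came near an ex vivo one, and within a condition the genotypes overlapped. By TPM, unstimulated cells held 7.07 ± 1.60 times as much Egr1 as Egr2 transcript in WT and 6.68 ± 0.476 times in cKO. In stimulated cells these ratios were 1.61 ± 0.0770 and 1.62 ± 0.0560. Ratios of the low ex vivo levels of Egr3 to Egr2 were near 1, at 0.962 ± 0.160 in WT and 1.16 ± 0.0228 in cKO, and after stimulation they were 1.12 ± 0.0559 and 1.25 ± 0.0396. In both conditions each of the 3 cKO libraries had a higher Egr3 to Egr2 ratio than any WT library. For scale, the levels of 21.5% of single genes ex vivo and 30.8% after stimulation separate the genotypes, in either direction. These shares cover 1 condition at a time, and none was worked out for ratios or for both conditions together.

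The summed EGR level, which also depends on the length used for Egr1, differed less between groups than its make-up did. Without stimulation it was 174 ± 60.7 scaled TPM in WT and 190.4 ± 23.5 in cKO, with stimulation 202 ± 14.0 and 214 ± 43.2, and all neighbours in this order overlapped. Against the corepressors, the summed Egr2 and Egr3 level was 0.772 ± 0.110 times the summed Nab1 and Nab2 level in WT ex vivo and 0.895 ± 0.123 times in cKO ex vivo. After stimulation it was 2.05 ± 0.151 times in WT and 2.61 ± 0.383 times in cKO. The corepressor transcripts thus exceeded those of Egr2 and Egr3 together in 5 of the 6 ex vivo libraries and in no stimulated library. With Egr1 counted in, the EGR sum exceeded the corepressor sum in every library, though this ratio depends on the length used for Egr1. That ratio ran from 2.68 to 4.77 in WT ex vivo and from 3.23 to 3.86 in WT stimulated. In cKO it ran from 3.05 to 4.44 ex vivo and from 3.76 to 4.999 after stimulation. Ex vivo and stimulated libraries thus overlapped in both genotypes. The ratio of Nab2 to Nab1 overlapped across all 4 groups, with means from 0.999 to 1.08.

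**Figure D3:**
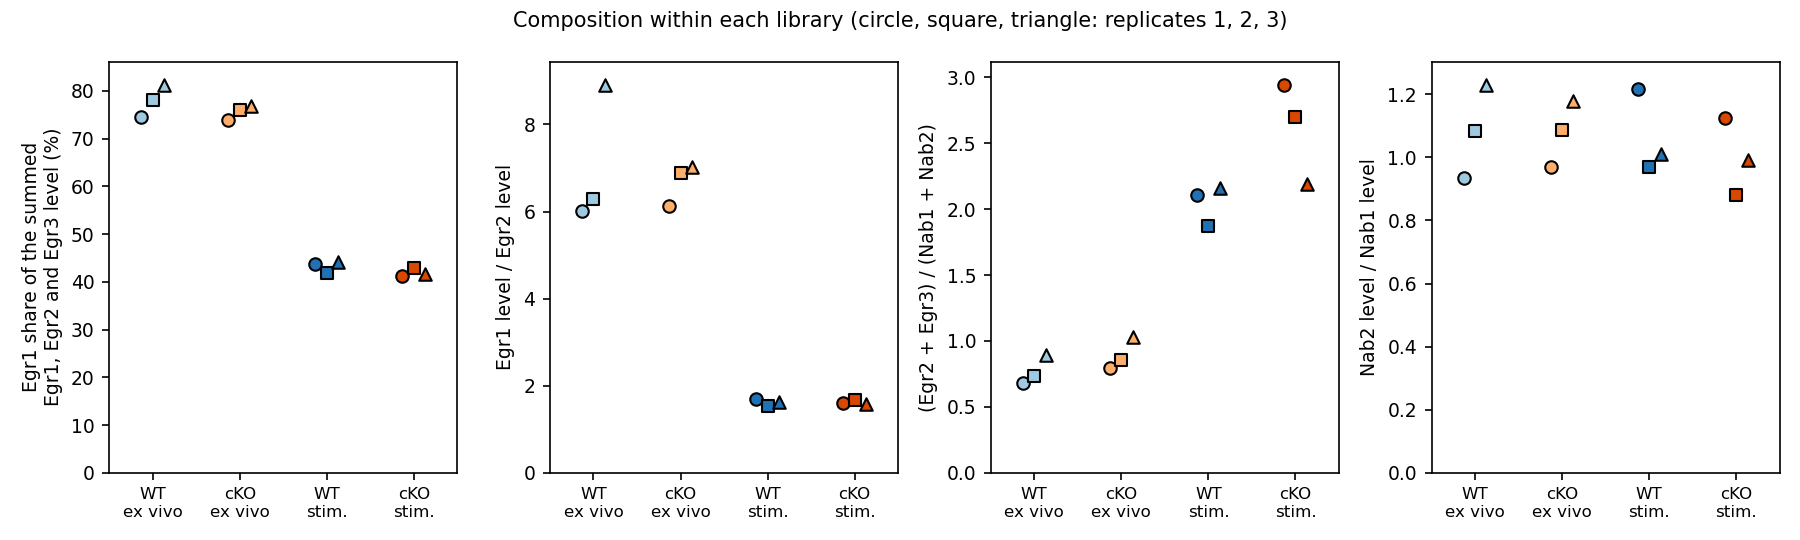
Composition within each of the 12 libraries (all axes linear from 0): the Egr1 share of the summed EGR level in percent, the Egr1 to Egr2 ratio, the ratio of summed Egr2 and Egr3 to summed Nab1 and Nab2, and the Nab2 to Nab1 ratio. The first 3 panels separate stimulated from ex vivo libraries without overlap, the Egr1 share falling from between 73.9% and 81.3% to between 41.1% and 44.1%, while the Nab2 to Nab1 ratio overlaps in all groups. Values with Egr1 depend on the length used for it.

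Loss of Ikaros moved none of the 5 genes past the threshold in either condition. Ex vivo, 0 of 5 were called where 5.29% of all genes tested were, and 1 of 5 had an unadjusted p under 0.05 in limma. Across the other settings tried, limma with voom weights on recovered reads included, the count also stayed at 0. That 1 gene was Egr3, whose cKO libraries all lay above its WT ones, with a change of 0.45 ± 0.17 (95% interval 0.075 to 0.83), a fold of 1.37, an unadjusted limma p of 0.0232 and an adjusted p of 0.187. Groups that separate in this way were found for 21.5% of all genes ex vivo, and Egr3 was the 1 member among them. Egr1 differed by 0.13 ± 0.25, Egr2 by 0.19 ± 0.15, Nab1 by 0.12 ± 0.11 and Nab2 by 0.12 ± 0.09, all with overlapping libraries. The 95% intervals allowed folds of up to 1.60 for Egr1, 1.44 for Egr2, 1.28 for Nab1 and 1.24 for Nab2, so differences of that size could not be detected or dismissed with 3 libraries a group.

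After stimulation 0 of 5 genes were called where 6.93% of all genes were, and 1 of 5 had an unadjusted p under 0.05. Here it was Nab2, which was lower in all 3 cKO libraries than in any WT library, by -0.28 ± 0.09 (95% interval -0.48 to -0.084), a fold of 0.822, with an adjusted p of 0.0890 in limma. Over the alternatives its value ran from -0.58 to -0.18 and its adjusted p from 0.0681 to 0.340. Separate groups were found for 30.8% of genes in this comparison, and Nab2 was the 1 member among them. Egr1 and Egr2 were almost level between genotypes, at 0.018 ± 0.25 and 0.014 ± 0.15, and Egr3 differed by 0.17 ± 0.17 and Nab1 by -0.19 ± 0.11. These values are near 0, and those of all 3 EGR genes changed sign under scaling over genes from 1 TPM, to -0.28, -0.28 and -0.13.

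The difference between the stimulation effects of cKO and WT was tested directly and passed for 0 of 5 genes, against 1.10% of all genes tested, with 1 of 5 at an unadjusted limma p under 0.05. All 5 values were negative, from -0.12 ± 0.35 for Egr1 and -0.17 ± 0.22 for Egr2 to -0.29 ± 0.24 for Egr3, -0.31 ± 0.15 for Nab1 and -0.40 ± 0.13 for Nab2, although Egr1 and Egr2 turned positive under quantile normalization, at 0.039 and 0.034. The adjusted p of Nab2 was 0.174, and the median over all genes tested was -0.035. The 5 genes share libraries and most moved together within groups, so their common sign is a single observation.

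**Figure D4:**
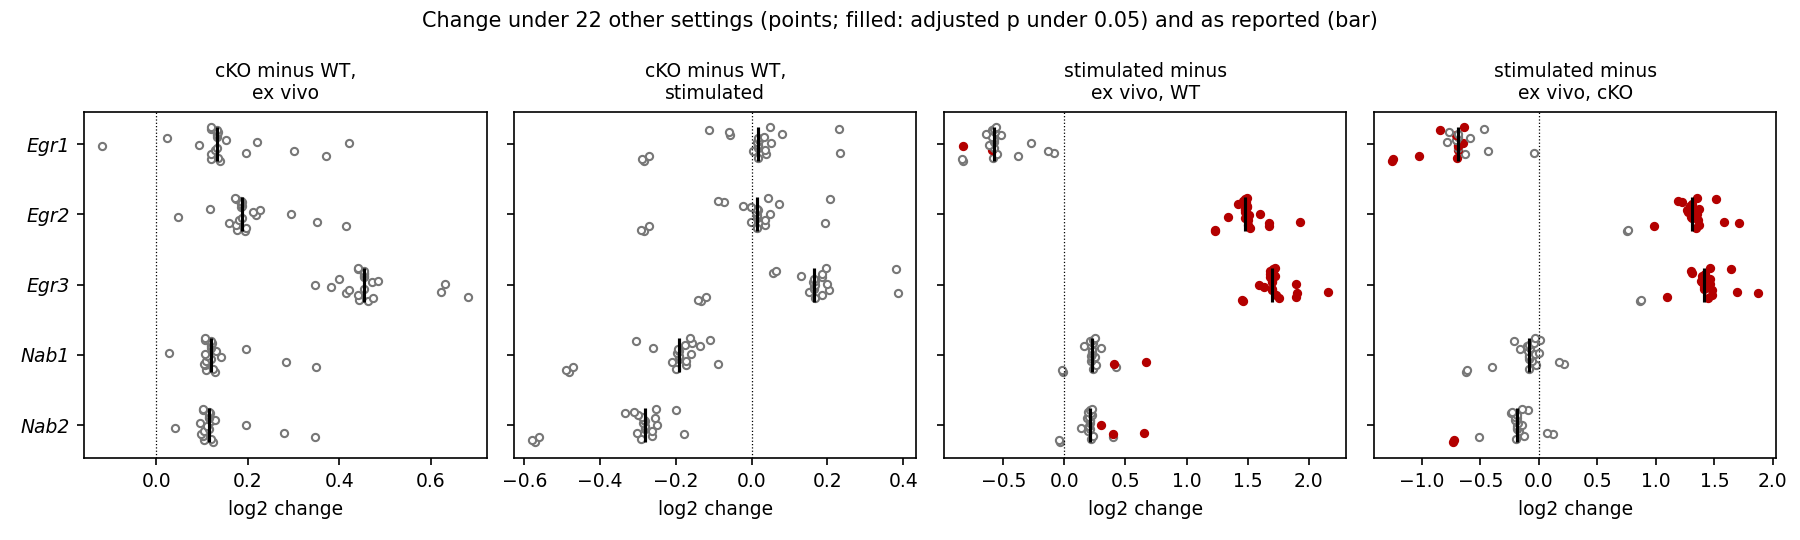
Log2 change of each gene under 22 other settings (points, filled for an adjusted p under 0.05) and as reported (bar) in the genotype comparisons and the stimulation comparisons, each panel with its own linear axis. Egr2 and Egr3 keep their direction under every setting shown in both stimulation panels and no genotype point is filled.

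Across the 12 libraries Egr2 and Egr3 followed each other more closely than either followed any other of the 13318 genes, with a Pearson correlation of 0.983 on the log2 scale. Next for Egr2 came Itgb8, the integrin chain with which Treg activate TGF-beta, at 0.980, and the zinc finger gene Zfp160 at 0.980. Next for Egr3 came Ap3b1, a subunit of an adaptor complex of vesicle sorting, at 0.981, and Zfp160 at 0.976. Itgb8 rose by 1.71 on the log2 scale with stimulation in WT and by 1.88 in cKO, close to Egr2 and Egr3. The nearest genes to Egr1 were Med31, a Mediator subunit, at 0.941, Obfc2b at 0.918 and Pold2, a DNA polymerase delta subunit, at 0.906. Nab1 and Nab2 had looser neighbours. The nearest to Nab1 was the kinase gene Mknk2 at 0.888, and for Nab2 they were the histone gene Hist1h4j at 0.882, the Bcl2 family gene Bcl2a1d at 0.867 and Ankrd46 at 0.845. Hist1h4j and Bcl2a1d belong to families of near-identical copies, so their reads are hard to assign to 1 copy. These correlations rest on 12 points in 4 groups and describe mainly the group pattern.

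With the group means removed, a different order appeared. Egr1 correlated with Egr2 at 0.914, with Egr3 at 0.874 and with Nab2 at 0.802, and Egr2 with Egr3 at 0.835, although Egr1 and Egr2 were at -0.58 before group means were removed. Within groups, then, libraries high in Egr1 were also high in Egr2, Egr3 and Nab2, while Nab1 stayed between -0.14 and 0.033 with the other 4. The points share library depth and scaling factor, so this is a description of 12 libraries and carries no test.

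Of the remaining EGR zinc finger genes, Wt1 was below the filter and Egr4 passed it only through the cKO stimulated group. Egr4 averaged 2.92 scaled TPM in WT stimulated and 6.04 in cKO stimulated, a change of 0.84 ± 0.22 with an adjusted p of 0.0438, and 3.42 and 4.33 ex vivo (0.25 ± 0.22, adjusted p 0.635). Since entering the test depended on its level in the cKO stimulated group, this call is only a description. It was not called with the filter at 1 TPM, with no filter, with TPM as deposited or without Gm10800, where the adjusted p was 0.223, 0.235, 0.170 and 0.0952. For scale, genes of olfactory and vomeronasal receptors, which T cells are not known to use, had group medians of 0.726 to 1.18 scaled TPM and 95th percentiles of 1.58 to 2.33.

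Upstream, 19 genes of the ERK, SRF and NFAT branches that switch EGR genes on were all tested, of which 1, Elk1, passed the filter through 1 group only. Stimulation in WT moved 4 of them up and 3 down, with Nfatc2, a calcium-dependent factor, the largest fall (-0.93 ± 0.08, adjusted p 1.21e-05). In cKO 2 rose and 7 fell, led by the SRF coactivator Mkl1 (0.66 ± 0.13, adjusted p 0.00212) and again Nfatc2 (-0.94 ± 0.08, adjusted p 7.52e-06). The 7 called in WT and the 9 called in cKO stand beside 32.0% and 43.8% of all genes tested, shares close to those of the list. The median changes of the list were -0.0030 in WT and -0.24 in cKO, against 0.0021 and -0.010 over all genes. The direction of these medians was not stable. In WT the median ran from -0.25 with no filter to 0.43 without Gm10800, where 12 rose and 1 fell, and in cKO from -0.77 with the filter at 1 TPM, where 0 rose and 11 fell, to 0.087 under quantile normalization. Mkl1 was not called in either genotype with the filter at 1 TPM, with no filter or with TPM as deposited. Genotype moved 1 of the 19 in each condition, where 5.29% of all genes were called ex vivo and 6.93% after stimulation, so the list was near the background. Ex vivo it was Nfatc1 (0.61 ± 0.13, adjusted p 0.0194), and after stimulation Nfatc3 (-0.56 ± 0.12, adjusted p 0.0203), and neither call held with the filter at 1 TPM, with no filter or with TPM as deposited. Downstream of the NAB proteins, Chd4, the remodeler known as their partner, was not called in any comparison of the reported fit (0.19 ± 0.13 with stimulation in WT, -0.33 ± 0.13 in cKO), while its relative Chd3 fell with stimulation by -1.11 ± 0.12 in WT and -1.36 ± 0.12 in cKO. The direction of Chd4 depended on the setting. With stimulation in cKO it was called lower with the filter at 1 TPM (-0.88), with no filter (-0.88), with TPM as deposited (-0.66) and with voom (-0.31), and called higher under quantile normalization (0.24). In WT it was called higher under quantile normalization (0.62) and without Gm10800 (0.64), and after stimulation it was called lower in cKO than in WT under quantile normalization (-0.30) and with voom (-0.45).

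Other immediate early genes went down where Egr2 and Egr3 went up. Of 21 such genes, all tested, 3 rose and 15 fell in each genotype, against 32.0% of all genes called in WT and 43.8% in cKO, with a median change of -1.43 in both. The median stayed negative under the 7 scaling, filter and weighting settings tried, from -1.69 to -0.95 in WT and from -1.99 to -0.99 in cKO, with 13 to 16 falling, whereas the count of rising genes went from 0 to 6. The B cell marker Ighm fell too, by -1.63 in WT and -1.98 in cKO, and its part in the result was not tested. Jun, an AP-1 subunit, was the largest fall in WT, from 559 scaled TPM ex vivo to 30.4 after stimulation (-4.11 ± 0.22, adjusted p 8.31e-07). Its AP-1 relative Fosb was the largest fall in cKO, from 940.4 to 64.1 (-3.86 ± 0.18, adjusted p 4.16e-07). The largest rise was Fosl2 in both, at 1.04 ± 0.22 in WT and 0.90 ± 0.22 in cKO, which was not called in either genotype with the filter at 1 TPM or with no filter, nor in cKO with TPM as deposited. Egr1, with its ex vivo levels from 91.6 to 196 scaled TPM, thus moved in the direction of the larger part of this list, and Egr2 and Egr3 in that of its 3 rising genes. Genotype called 2 of the 21 higher and 3 lower ex vivo, with Ier3 at 1.48 ± 0.27 and Jun at -1.28 ± 0.22, and 2 higher and 1 lower after stimulation, with Ier3 at 1.07 ± 0.27 and the phosphatase gene Dusp2 at -0.58 ± 0.12. Over all genes tested 5.29% were called ex vivo and 6.93% after stimulation. The test of the difference between stimulation effects passed for Jun (1.89 ± 0.30) and Dusp2 (-1.01 ± 0.16), against 1.10% of all genes. With the filter at 1 TPM 0 of the 21 were called for genotype in either condition or for this difference. The list was assembled with earlier results of these libraries known, so its counts are descriptive.

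A final list holds 18 genes tied to EGR2 and EGR3 in T cells, of which 17 were tested and 3 (Ccl1, Crtam and Nrgn) passed the filter through 1 group only. Neither Egr2 nor Egr3 passed the test of genotype. Of the 17 genes, 6 were higher in cKO ex vivo and 1 lower, where 5.29% of all genes tested were called, the largest being Lag3, a receptor that restrains T cells, from 17.1 to 39.1 scaled TPM (1.15 ± 0.11, adjusted p 0.000278), and Dgka, a diacylglycerol kinase gene of anergy, from 380.3 to 277 (-0.46 ± 0.10, adjusted p 0.0260). After stimulation 7 were higher and 2 lower, where 6.93% of all genes were called. Ccl1, a chemokine gene, is among the 7 (2.08 to 9.88 scaled TPM), but it entered the test only through its level in the cKO stimulated group, so its call is only a description. The largest differences were those of Socs1, an inhibitor of cytokine signalling, from 50.3 to 231 (2.18 ± 0.22, adjusted p 0.000285), and Dgka at -1.02 ± 0.10. The median difference of the list was 0.52 ex vivo and 0.43 after stimulation, against -0.0070 and -0.035 over all genes tested. The medians of this list, also under other settings, include the 3 genes that passed the filter through 1 group only. The ex vivo median is the value of Ccl1 itself, so these medians are only a description. Of the B cell markers, Cd79b was also higher in cKO after stimulation (0.96 ± 0.23, adjusted p 0.0283) and Ighm was not called (-0.076 ± 0.11, adjusted p 0.718), and their part in the result was not tested. The median stayed positive under the 7 scaling, filter and weighting settings, from 0.42 to 0.70 ex vivo and from 0.14 to 0.51 after stimulation, but with the filter at 1 TPM 0 of the 17 were called ex vivo and 1 after stimulation, namely Ccl1, where Socs1 had an adjusted p of 0.0578. The ex vivo call of Dgka was lost under 5 of the 7.

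Between ex vivo and stimulated cells, genes of the same list moved in both directions. In WT 3 rose and 6 fell, and in cKO 5 rose and 7 fell, and 1 of these 5 was Ccl1, which entered the test through the cKO stimulated group alone. Over all genes 32.0% and 43.8% were called. The largest rise in both was Tnfrsf9, the costimulatory receptor 4-1BB, by 1.85 ± 0.16 and 2.26 ± 0.16, and the largest fall was Socs3, a second inhibitor of cytokine signalling, by -1.45 ± 0.18 and -1.55 ± 0.18. Socs1 was the 1 gene of the list whose stimulation effect differed between genotypes (2.04 ± 0.31, adjusted p 0.0137), against 1.10% of all genes tested, being 77.9 and 50.3 scaled TPM before and after stimulation in WT and 85.0 and 231 in cKO. This call was lost with the filter at 1 TPM, with no filter and with TPM as deposited. The list's median stimulation effect, with Ccl1, Crtam and Nrgn included, was -0.26 in WT and -0.23 in cKO, and without Gm10800 it turned to 0.17 and 0.0060.

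**Figure D5:**
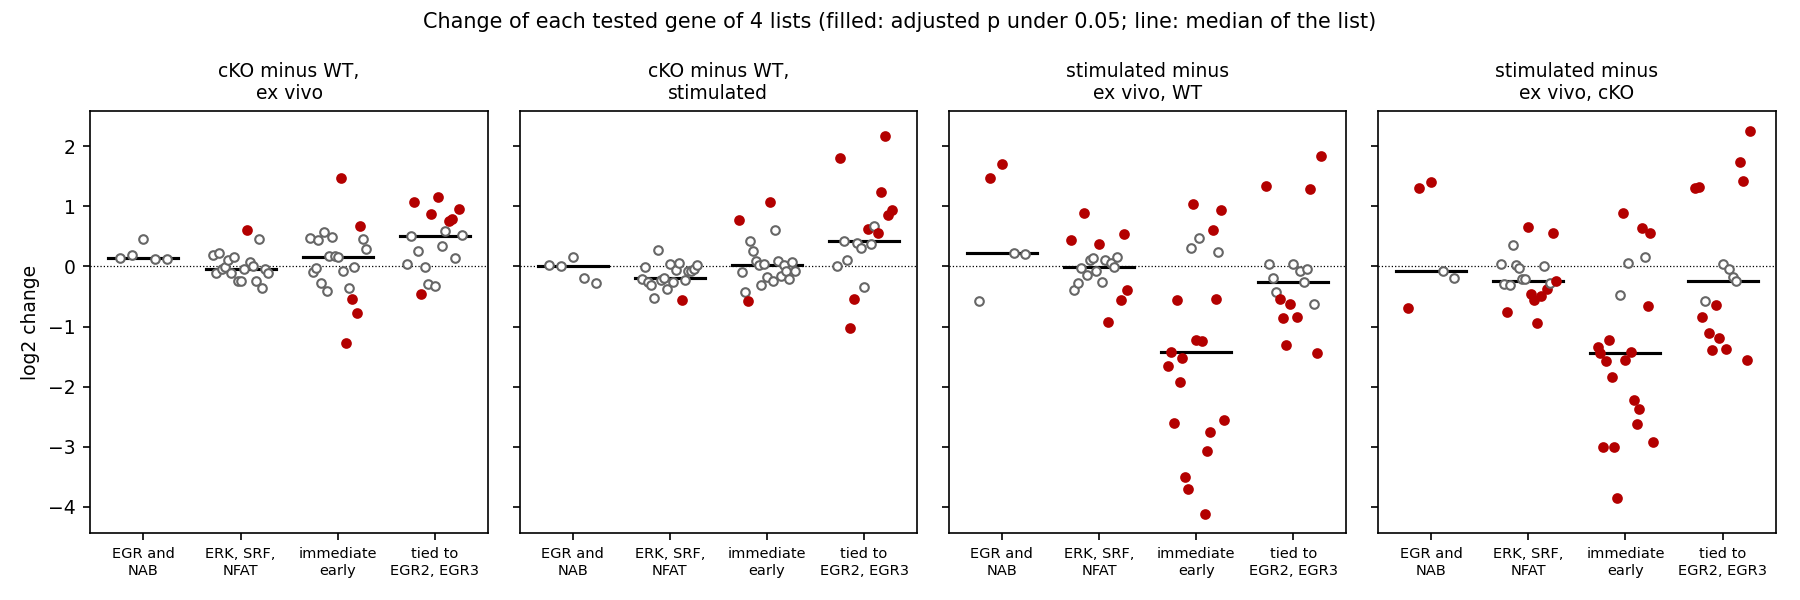
Log2 change of each tested gene in the 5 EGR and NAB genes and in the 3 larger pathway lists, for the genotype and stimulation comparisons (linear axis, filled for an adjusted p under 0.05, line at the list's median). In both stimulation panels the immediate early genes lie mostly below 0, with a median of -1.43, while Egr2 and Egr3 lie above 1.

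Promoter sequence was read from the RefSeq table of build GRCm38.p6, which is not the build of the expression table, and 3 of the 5 genes matched an entry there by symbol, namely Egr2, Nab1 and Nab2. The 250 bases ahead of the annotated start are shown because Egr2 changed with stimulation and the NAB genes hardly did. Capitals mark matches, on either strand, to the EGR sites GCGTGGGCG and GCGGGGGCG, to TGACGTCA, to AGGAA and GGGAA, cores used for Ikaros and shared with other factors, and to the CArG box of SRF (CC, then 6 A or T, then GG). The Egr2 window is the third of 5 annotated starts, chr10:67537619-67537868 on the plus strand. The Nab1 window is chr1:52500449-52500698 and the Nab2 window chr10:127666704-127666953, both on the minus strand.
Egr2: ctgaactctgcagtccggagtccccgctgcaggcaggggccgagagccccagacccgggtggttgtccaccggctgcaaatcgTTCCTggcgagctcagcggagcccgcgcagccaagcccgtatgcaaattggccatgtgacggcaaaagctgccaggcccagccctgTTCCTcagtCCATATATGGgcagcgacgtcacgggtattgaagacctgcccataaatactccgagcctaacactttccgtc
Nab1: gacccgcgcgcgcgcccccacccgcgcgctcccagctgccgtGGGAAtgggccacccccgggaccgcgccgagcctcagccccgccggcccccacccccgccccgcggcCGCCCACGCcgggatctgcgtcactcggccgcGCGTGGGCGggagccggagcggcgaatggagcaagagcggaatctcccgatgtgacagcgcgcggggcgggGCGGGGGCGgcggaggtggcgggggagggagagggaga
Nab2: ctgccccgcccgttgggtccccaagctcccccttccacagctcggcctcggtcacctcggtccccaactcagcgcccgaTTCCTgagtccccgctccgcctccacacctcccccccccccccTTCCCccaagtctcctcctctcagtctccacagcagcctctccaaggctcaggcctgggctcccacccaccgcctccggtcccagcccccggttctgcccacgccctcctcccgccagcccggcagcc

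A CArG box, CCATATATGG, lay 72 bases ahead of this Egr2 start, where 1.47% of the 32851 windows of the table hold a CArG box. Of the 5 Egr2 windows 4 held one, but 3 of these overlap one another and share this same site. The first of the 5 held none. Both NAB windows held none. The Nab1 window held 2 copies of GCGTGGGCG, a motif found in 0.536% of windows, and 1 of GCGGGGGCG, found in 2.57%. Its GC content was 80.8%, well above the median of 52.4% over all windows, and the EGR sites are themselves rich in G and C. AGGAA occurred 2 times in this Egr2 window and 1 time in that of Nab2, but 60.3% of all windows hold it. GGGAA occurred 1 time in each NAB window and was not in this Egr2 window, and 56.2% of all windows hold it. TGACGTCA, present in 1.55% of windows, matched in none of the 7 windows of the 3 genes. These are matches of letters in short windows and do not show that a factor binds.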

How the data were processed

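RNA of 12 Treg libraries was measured by strand-specific sequencing after ribosomal RNA depletion. Per the labels, the authors aligned 51 bp read pairs to mm9 with STAR 2.6.0c and counted them on genes by strand with HTSeq 0.6.1. The table deposited by the authors gives TPM, a signal scaled to 1000000 per library, and log2 values, for which the authors added the worth of 1 read to the TPM. Reads recovered from that offset were whole numbers, within 0.1, for 99.9993% of values. A second deposited table with the authors' own test results was not used.

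The fit took the 13318 of 36222 genes that averaged at least 5 TPM in some group. The TPM were scaled by a trimmed mean of M-values over these genes (30% of M-values and 5% of A-values trimmed) and log2 was taken after adding 1 as pseudocount. The model was fitted with limma 3.58.1 in R 4.3.3 (eBayes with trend) to all 12 libraries with the 4 groups as its only term. P-values are two-sided and adjusted by Benjamini-Hochberg over all genes tested, and a gene was called at an adjusted p under 0.05. Errors beside a log2 change are SE and those beside a level or ratio are SD with n = 3. Fold changes are on the log2(scaled TPM + 1) scale, which understates changes of low genes. The script was tested on simulated data. Figures were drawn with Python 3.11.15.

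Most genes named beside the 5 were fixed by rule: the 3 genes of highest correlation with each, and the largest called rise and fall of each pathway list, with Ikzf1 as a check of the labels. Others, such as Chd4 and the cell type markers Ighm and Cd79b, are named outside this rule. The members and lists were chosen with earlier results of these data known. In total 22 other settings were run, 12 of which left out 1 library. Gene positions are from GENCODE vM1 on NCBIM37, the assembly of mm9. Some genes that the naming rule or the lists cover are not reported here by name.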

Additional observations from a re-analysis of the deposited data

Results flagged for a closer look

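Nab2 was singled out because its stimulated libraries lay on opposite sides of the ex vivo ones in the 2 genotypes, although neither stimulation effect was called. All 3 WT stimulated libraries lay above all WT ex vivo libraries, and all 3 cKO stimulated libraries lay below all cKO ex vivo libraries. The difference of the stimulation effects, cKO minus WT, was -0.40 ± 0.13 on the log2 scale (95% interval -0.68 to -0.12), with an unadjusted limma p of 0.00974 and an adjusted p of 0.174 over all genes tested, so it did not pass the threshold. Over the 21 other settings it stayed negative, from -0.91 to -0.28, with adjusted p from 0.102 to 0.708. The opposite signs themselves depended on the scaling. With the filter at 1 TPM both stimulation effects were negative, at -0.034 in WT and -0.73 in cKO, and without Gm10800 both were positive, at 0.65 and 0.067.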

How the results depend on the processing

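The rise of Egr2 and Egr3 with stimulation kept its direction in all 22 other settings in both genotypes. Both were called in all 22 in WT and in 20 in cKO, the exceptions being the filter at 1 TPM (adjusted p 0.0664 and 0.0613) and no filter (0.0678 and 0.0633), which also rescale the libraries over more genes. The fall of Egr1 in cKO kept its direction in all 22 but was called in 11, and in WT in 2, with values from -1.25 to -0.043 in cKO and from -0.83 to -0.082 in WT. No genotype difference of the 5 genes was called in any setting. Among results of the 5 genes that changed sign, none was called in the reported fit. Those settings moved the median of all genes by up to -0.51 on the log2 scale (filter at 1 TPM, stimulation in cKO) and 0.42 (TPM without Gm10800, stimulation in WT). The cause of these changes was not tested.

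After stimulation the genotype values of Egr1, Egr2 and Egr3 were -0.28, -0.28 and -0.13 with the filter at 1 TPM, -0.29, -0.29 and -0.14 with no filter, and -0.27, -0.27 and -0.12 with TPM as deposited. Without Gm10800 the value of Egr2 was -0.000464. The WT stimulation values of Nab1 and Nab2 were -0.012 and -0.034 with the filter at 1 TPM and -0.019 and -0.041 with no filter. In cKO they were 0.21 and 0.12 under quantile normalization and 0.18 and 0.067 without Gm10800. The interaction values of Egr1 and Egr2 were 0.039 and 0.034 under quantile normalization. Over the fits that left out 1 library each, the genotype value of Egr1 ex vivo ran from -0.12 to 0.42. Those of Egr2, Nab1 and Nab2 ex vivo kept their sign but ran from 0.047 to 0.29, 0.029 to 0.20 and 0.041 to 0.20. After stimulation the genotype value of Egr1 ran from -0.11 to 0.23 and that of Egr2 from -0.088 to 0.21. The cKO stimulation value of Nab1 ran from -0.21 to 0.013, and the interaction from -0.37 to 0.13 for Egr1 and from -0.27 to 0.033 for Egr2.

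Counts over all genes moved more. For genotype ex vivo, 57 genes were called with the filter at 1 TPM, 44 with no filter, 273 with TPM as deposited and 1232 with voom on recovered reads, against 704 reported, and 324 to 740 with 1 library left out. For genotype after stimulation the counts were 52, 52 and 306 in the first 3 of these, 1579 under quantile normalization, 519 without Gm10800 and 553 with only the 2 groups compared, against 923, and 398 to 1057 with 1 library left out. For stimulation in WT they were 1731, 1677 and 1943 in the same 3, and 8006 without Gm10800, against 4262. For stimulation in cKO the count without Gm10800 was 10938, against 5835. The setting without Gm10800 also left out the trimmed-mean scaling, and the effect of each was not separated. It brought 23334 genes over the filter in place of 13318, and the share called moved less than the count, from 32.0% to 34.3% in WT and from 43.8% to 46.9% in cKO, while the share of calls that were higher went from 39.6% to 89.8% and from 39.5% to 83.5%. That share was 17.1% and 12.4% with the filter at 1 TPM, which tested 33873 genes, and much the same with no filter, and it was 60.5% and 11.9% with TPM as deposited. Under quantile normalization it was 51.8% in WT. For genotype it was 68.5% ex vivo and 47.6% after stimulation as reported, 95.2% and 22.5% with TPM as deposited, and 90.3% and 48.0% without Gm10800. For the interaction they were 0 with the filter at 1 TPM, 0 with no filter, 67 with TPM as deposited, 392 under quantile normalization and 336 with voom, against 147, and 50 to 203 with 1 library left out. Of the 5 genes, 4 were called for stimulation in WT under quantile normalization, where 29.9% of all genes were, and 4 without Gm10800, where 34.3% were.

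Same-numbered libraries did not deviate together (correlations from -0.21 to 0.26, over 0.1 in 2 of 18), so the numbers were not taken as pairs. With a replicate block 65 genes were called for the interaction, and the fall of Egr1 in cKO lost its call, with a limma adjusted p of 0.0530.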
